A study of Mus musculus with 3 samples.

Results

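The peaks described here are all those that lie on mouse chromosomes 7, 10 and 12 in maps of PATZ1, a zinc-finger transcription factor, in 10T1/2 cells. This established line of mouse mesenchymal cells can be made to differentiate into adipocytes. The study's title ties PATZ1 to adipogenesis through promoters of adipogenic factors, and the maps were made at day 0 and day 5 of differentiation. Each day has 1 library of DNA bound to PATZ1, obtained by chromatin immunoprecipitation and sequencing (ChIP-seq) with a Santa Cruz antibody, and an input library, labelled for both days, serves as the control. The cells carry no engineered allele in the labels, and no agent other than differentiation is named. The 3 chromosomes hold 25503 of the 315100 peaks at day 0 (8.09%) and 109012 of the 852421 peaks at day 5 (12.8%). Chromosome 7 holds 12330 and 23222 of them, chromosome 10 holds 6409 and 54262, and chromosome 12 holds 6764 and 31528. They were chosen by measured values of these lists, namely their peak densities and control backgrounds, so those values are given as a description and no test is made. With 1 library per day, no difference between days has a replicate check.

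A ChIP-seq peak is a place where reads of the immunoprecipitated library pile up above what the input leads one to expect. The input is sheared chromatin that was not immunoprecipitated, and its reads follow the number of DNA copies, the ease of shearing and the ease of mapping rather than binding. A long list of peaks called against an input can therefore change from region to region because the immunoprecipitated library changes, because the input changes, or both. PATZ1 carries a BTB domain and zinc fingers, binds GC-rich DNA and is found at promoters.

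Every deposited peak carries the authors' fold and −log10 p at its summit, and from these the pile-up of PATZ1 reads and the control background it was set against were solved. The background is the largest of several estimates: an average over the whole genome, and control reads counted within the length to which reads were extended, within 1 kb and within 10 kb. The genome-wide average is the lowest value a background can take. It was 1.95 reads at day 0, where reads were extended to 228 bp, and 0.452 reads at day 5, where they were extended to 56 bp. A peak at this lowest background has fewer than 95 control reads in the 10 kb around it, and above that the local input lifts the background. All backgrounds in both lists matched a whole number of control reads or the lowest value. At summits shared to the base pair by both days on chromosomes 7, 10 and 12, the 10-kb count was the same in 6 of 6 cases, with 95 to 186 control reads, and the 1-kb count in 9 of 9. Over the 19 autosomes it was the same in 153 of 153 and 96 of 96 cases, so both days were set against the same control reads at these places.

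In peak density, chromosome 12 was second from the bottom of the 19 autosomes on both days, while the places of chromosomes 7 and 10 changed. At day 0, chromosome 10 had the lowest density of the 19 autosomes, with 50.5 peaks per Mb (95% Poisson interval 49.2 to 51.7). Chromosome 12 was next with 57.3 per Mb (55.9 to 58.7), and chromosome 7 was sixth from the bottom with 82.5 per Mb (81.1 to 84.0). Chromosome 1, with 74.6 per Mb, was the sparsest of the 16 other autosomes, chromosome 15, with 266, the densest, and their median was 125. Relative to that median the densities were 0.405 on chromosome 10, 0.46 on chromosome 12 and 0.663 on chromosome 7. These intervals reflect only the counting error of peaks taken as independent.

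At day 5 the order of chromosomes 7 and 10 was turned around. Chromosome 10 was second from the top with 427 peaks per Mb (424 to 431), below chromosome 15 alone, and stood at 1.23 times the median of the 16 other autosomes. Chromosome 7 was the lowest of all with 155 per Mb (153 to 157), 0.448 times that median. Chromosome 12 was second from the bottom with 267 per Mb (264 to 270.0), 0.769 times the median. The 16 others lay between 282 on chromosome 14 and 439 on chromosome 15, with a median of 347. Chromosome 7 thus lay far outside the range of the others at day 5 and inside it at day 0, while chromosome 10 was below that range at day 0 and within its upper end at day 5. The lists differ in extension length and weakest p, so each density is read only against the other chromosomes of the same day.

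**Figure D1:**
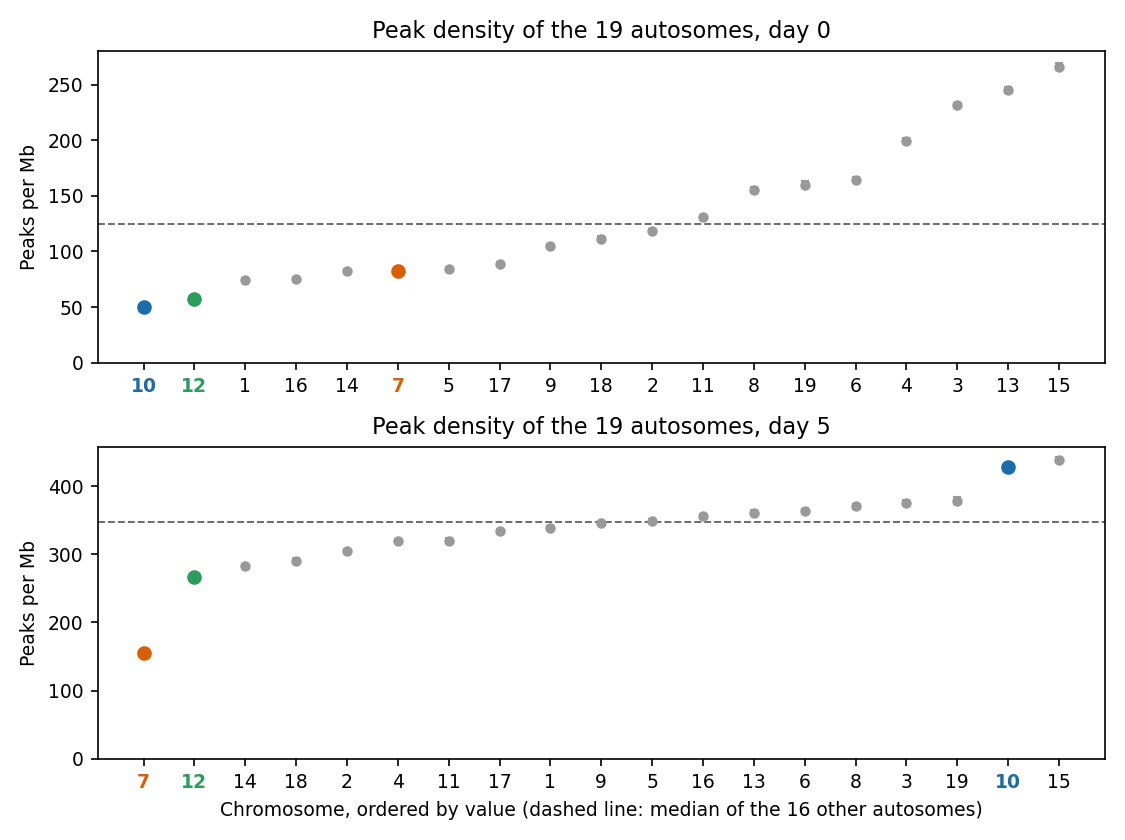
Peaks per Mb on each autosome at day 0 (top) and day 5 (bottom), in rising order, with 95% Poisson intervals that are mostly smaller than the points. Chromosomes 7, 10 and 12 are in colour and the dashed line is the median of the 16 other autosomes: chromosome 10 stands lowest at day 0 with 50.5 and second highest at day 5 with 427.

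At their peaks, the control split the 3 chromosomes into a pair with few input reads and one with many. It did so in both lists, which share that control. On chromosome 7, 54.5% of day 0 peaks (Wilson interval 53.7 to 55.4) and 59.0% of day 5 peaks (58.3 to 59.6) lay at the lowest background, the highest shares of the 19 autosomes. On chromosome 10 the shares were 6.26% (5.69 to 6.88) and 4.18% (4.01 to 4.35), second lowest after chromosome 15 on both days. On chromosome 12 they were 39.9% (38.8 to 41.1), second from the top at day 0, and 37.5% (36.9 to 38.0), behind 2 others at day 5. The 16 other autosomes had medians of 19.4% and 18.4%, with highest values of 36.8% on chromosome 18 at day 0 and 37.7% on chromosome 14 at day 5.

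The backgrounds themselves gave the same order. The median background at day 0 was 1.95 reads on chromosome 7, which is the lowest possible value, 2.09 on chromosome 12 and 3.06 on chromosome 10, against a median of 2.5 over the other chromosomes. At day 5 it was 0.452, 0.522 and 0.785 reads, against 0.622. Where the count within 10 kb had set the background, chromosome 10 had a median of 142 control reads per 10 kb at day 0 (quartiles 119 and 165) and 145 at day 5 (126 and 165). Chromosome 7 had 108 and 111, and chromosome 12 had 109 and 117, while the whole-genome average is 94.4. This count is only visible where it exceeds the average, so for chromosomes 7 and 12 it describes the input-rich minority of their peaks. It set the background of 39.1% of day 0 peaks on chromosome 10, 21.3% on chromosome 12 and 12.4% on chromosome 7.

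Peak density ran with the control share more closely across the autosomes at day 5 than at day 0. Across the 19 autosomes, the share of peaks at the lowest background was set against the density. At day 5 the Pearson r was -0.973 and the Spearman rho -0.951. That is, autosomes whose peaks stood less often at the lowest background had more peaks. Without chromosomes 10 and 15 the r was -0.965. At day 0 the values were -0.485 and -0.474, and without chromosomes 10 and 15 the r was -0.546. Over the 16 other autosomes alone the r was -0.627 at day 0 and -0.934 at day 5, again weaker at day 0. Both quantities are taken from the same peaks and the same input, and chromosomes are not independent replicates, so these are descriptions. At day 0 chromosomes 10 and 15 had similar shares at the lowest background, 6.26% and 2.96%, and densities of 50.5 and 266 per Mb, the 2 ends of the autosomes.

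**Figure D2:**
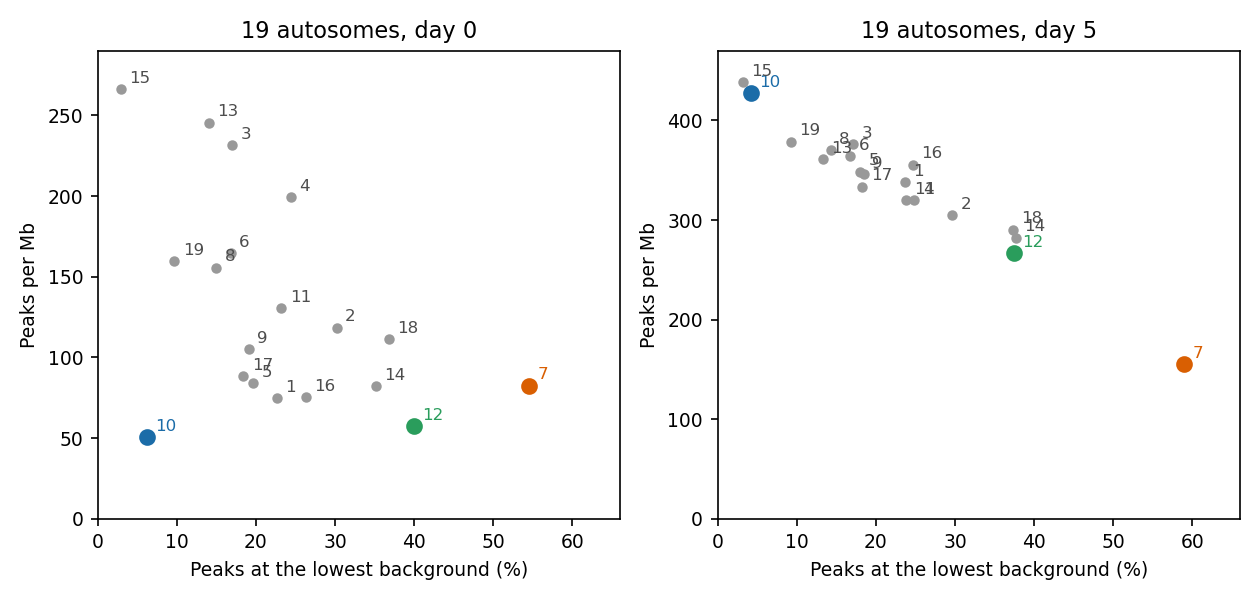
Peaks per Mb against the percentage of peaks at the lowest background for the 19 autosomes at day 0 (left) and day 5 (right), each point labelled with its chromosome. At day 5 the points fall along a line from chromosome 15 to chromosome 7 at 59.0%, and at day 0 chromosome 10 (6.26%, 50.5 per Mb) lies far below chromosome 15.

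Coverage by the PATZ1 library was looked at with the background held fixed. Among peaks at the lowest background, the number with 8 piled-up reads was divided by the number with 7 at day 0, and 4 by 3 at day 5. For reads scattered evenly, this step grows with the number of PATZ1 reads, and the background is the same for every peak counted. The peaks counted are those where the input is low. A fixed background does not fix the input, since peaks with differing counts below 95 control reads in 10 kb share it. At day 5 the step was 0.163 on chromosome 7 (1174 over 7183 peaks, exact 95% interval 0.154 to 0.174), the lowest of the 19 autosomes. On chromosome 10 it was 0.332 (393 over 1185, 0.295 to 0.372), second from the top, and on chromosome 12 it was 0.200 (0.188 to 0.213), with only 2 autosomes below it. The 16 others ranged from 0.198 to 0.340 with a median of 0.237, so chromosome 7 lay below their range, and chromosomes 12 and 10 near its lower and upper ends.

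At day 0 the steps of the 3 chromosomes lay close together. It was 0.368 on chromosome 7 (550 over 1495, interval 0.333 to 0.406), 0.363 on chromosome 12 (213 over 587, 0.309 to 0.425) and 0.343 on chromosome 10 (34 over 99, 0.225 to 0.512). The 16 others ranged from 0.292 to 0.609 with a median of 0.379, so all 3 lay within their range, and the few peaks at the lowest background on chromosome 10 leave its interval wide. With the background fixed instead at 3 control reads within 228 bp, a choice made after seeing the data, chromosome 10 had 110 peaks with 8 reads and 157 with 7, a step of 0.701 (0.544 to 0.8997). The median of the others was 0.651 and their range 0.525 to 0.848. Across the 19 autosomes the step at the lowest background and the density had an r of 0.893 at day 0 and 0.889 at day 5, again from the same peaks. The step also ran with the control: with the share of peaks at the lowest background it had an r of -0.468 at day 0 and -0.880 at day 5. The low day 0 density of chromosome 10 was therefore seen together with an elevated input at its peaks and a step within the range of the other autosomes. What sets that density was not tested.

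**Figure D3:**
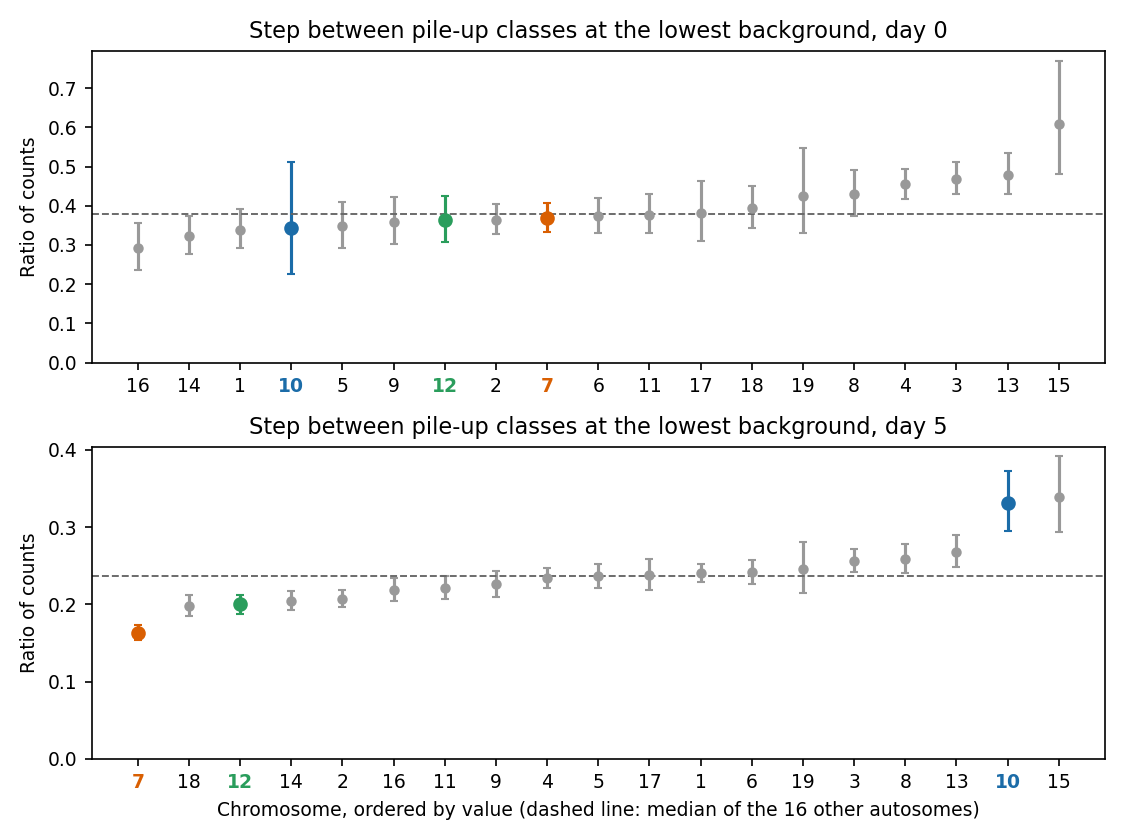
Ratio of the numbers of peaks in neighbouring pile-up classes at the lowest background (8 over 7 reads at day 0, 4 over 3 at day 5) on each autosome, with exact 95% intervals and the median of the 16 other autosomes as a dashed line. At day 5 chromosome 7 is lowest with 0.163 and chromosome 10 second highest with 0.332, and at day 0 all 3 intervals include the median of 0.379.

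Along chromosome 7, the control at peaks was low in every fixed 5-Mb window in mm9 coordinates that holds peaks. The density of PATZ1 peaks was not even. Where no peak was called, the control is not known. Of the 30 windows, 29 hold peaks, and all 29 had a share at the lowest background above 20.6%, the median window of the other autosomes at day 0, and above 19.1% at day 5. The share ran from 32.7% to 86.1% at day 0 and from 36.4% to 87.2% at day 5, with both lows between 15000001 and 20000000 and both highs between 45000001 and 50000000. At day 5, all 30 windows had a density under 268.6 per Mb, the 10th percentile of the windows of the other autosomes. The highest, between 105000001 and 110000000, reached 264 per Mb. At day 0, 24 of 30 windows were below the median window of the others, 130.1 per Mb, and 6 were above it. The densest were 50000001 to 55000000 with 256 per Mb (1282 peaks) and 25000001 to 30000000 with 249.8 (1249 peaks).

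Some of the windows of chromosome 7 hold little or nothing because long stretches have no peak on either day. Taking stretches of at least 300 kb, chromosome 7 has 8 of them with 19.05 Mb in all, 12.8% of its span, the most of any autosome. The longest runs from 39057595 to 46517989 (7.46 Mb) and empties the window from 40000001 to 45000000 in both lists. Others run from 7251841 to 10729197 (3.48 Mb), from 20630389 to 24083755 (3.45 Mb) and from 32160280 to 34266169 (2.11 Mb). Of the 19.05 Mb, 18.6 Mb lie before 60 Mb. Whether reads can be placed in these stretches was not tested. Without them, the density of chromosome 7 was 94.6 per Mb at day 0 and 178 at day 5, still the lowest of the 19 autosomes at day 5, and eighth from the bottom at day 0.

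The part of chromosome 7 before 60 Mb, a place chosen after seeing the windows, differed from the rest at day 0 and in the opposite sense at day 5. At day 0 it had 115 peaks per Mb (112 to 118) against 62.5 (60.9 to 64.2) after it, a ratio of 1.84, or 2.72 without the empty stretches. At day 5 it had 103 (101 to 106) against 187 (185 to 190.2), a ratio of 0.552, or 0.817 without the empty stretches. The share of peaks at the lowest background was 50.2% before and 59.5% after the place at day 0, and 53.6% and 60.8% at day 5. The day 0 step was 0.417 (0.366 to 0.475) before it and 0.313 (0.268 to 0.365) after it. As the place was picked from day 0 densities and the step comes from the same peaks, these values are a description only. The day 5 steps were 0.162 and 0.164. Strong day 0 peaks, those with a −log10 q of at least 5, numbered 40 of 6543 before the place and 14 of 5787 after it. Over the whole day 0 list 0.258% of peaks were strong, and nothing is read from these counts.

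**Figure D4:**
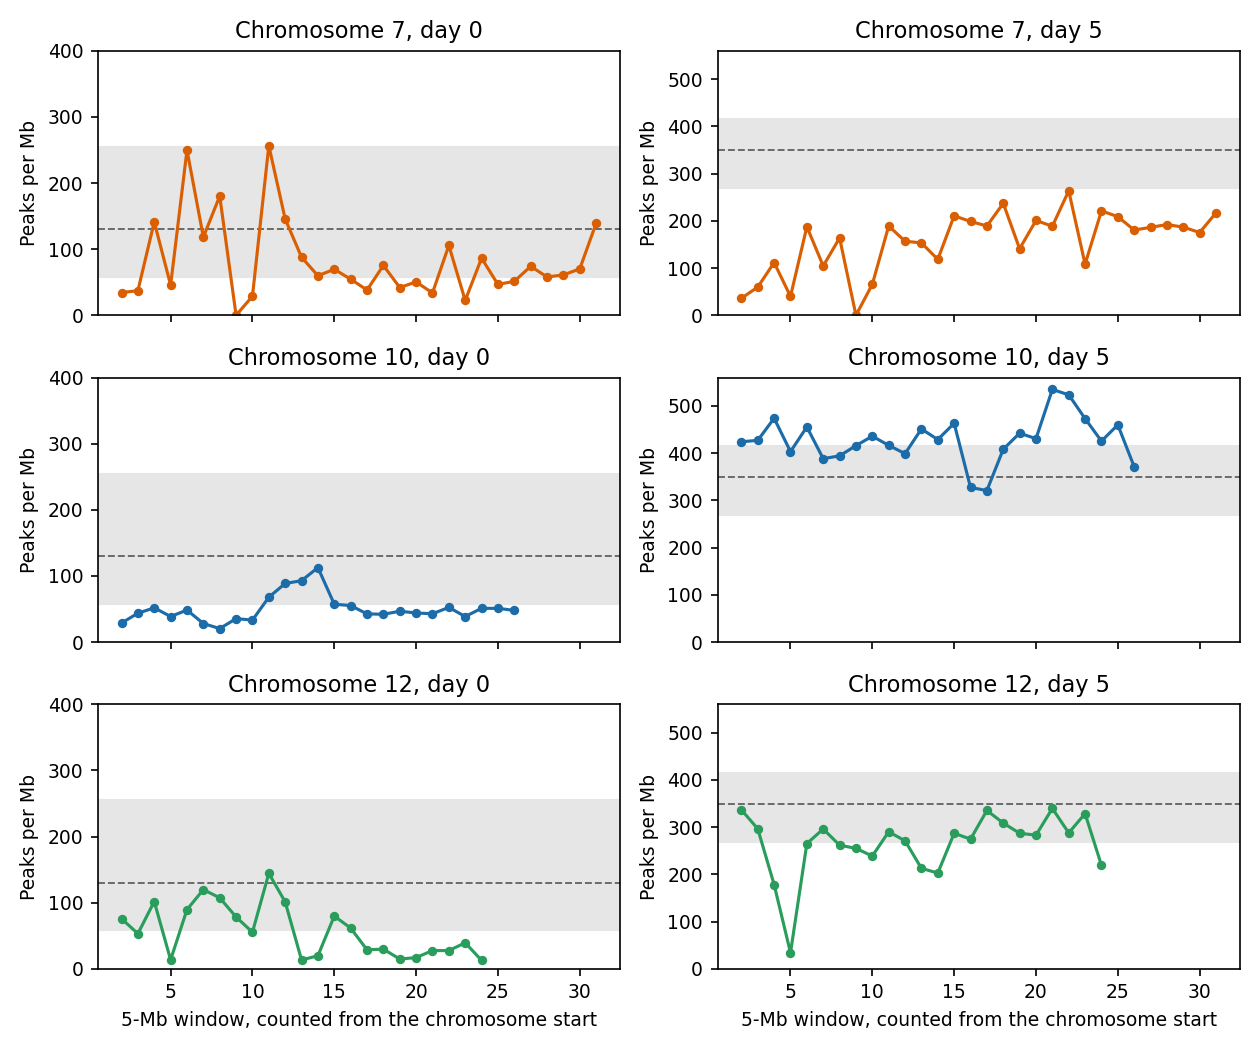
Peaks per Mb in fixed 5-Mb windows along chromosomes 7 (top), 10 (middle) and 12 (bottom) at day 0 (left) and day 5 (right). The dashed line is the median window of the 16 other autosomes (130.1 at day 0, 349.5 at day 5) and the grey band their 10th to 90th percentile. Chromosome 10 lies under the line at day 0 and, but for 2 windows, above it at day 5.

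Chromosome 10 kept to its side of the other autosomes along its length on both days. All 25 windows were below the median window of the other autosomes at day 0, and 21 were below their 10th percentile, 58.2 per Mb. The densities ran from 20.4 per Mb between 35000001 and 40000000 (102 peaks) to 113 between 65000001 and 70000000 (563 peaks), with a median window of 46.6. At day 5, 23 of the 25 were above the median window of 349.5 per Mb and 17 were above their 90th percentile, 415. The highest was 534.8 per Mb between 100000001 and 105000000 (2674 peaks). The 2 exceptions lie next to each other, from 75000001 to 85000000. The lower of them, from 80000001, had 320.8 per Mb. The low day 0 density thus held in every window and the high day 5 density in 23. The difference between the days was not tested.

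At its peaks, the input of chromosome 10 was also raised along most of its length. At day 5 all 25 windows, and at day 0 24 of 25, had a smaller share of peaks at the lowest background than the median window of the others. The exception at day 0 was the window from 45000001 to 50000000, with 27.7%, and at day 5 the same window had the highest share, 16.6%. Its median background was the lowest of the chromosome on both days, 2.27 and 0.599 reads. The highest median backgrounds, 4.15 reads at day 0 and 1.02 at day 5, came from the window between 80000001 and 85000000. There the 10-kb count, where it set the background, had a median of 187 control reads at day 0. This window has the lowest day 5 density of the chromosome and a day 0 density of 42.6 per Mb, near the middle of its windows.

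On chromosome 12 the day 0 list was sparser after 60 Mb and the day 5 list was not. Before that place, again chosen after seeing the windows, day 0 had 85.7 peaks per Mb (83.3 to 88.1), and after it 31.0 (29.6 to 32.4), a ratio of 2.77. At day 5 the same parts had 252 (248 to 257) and 281 (276 to 285), a ratio of 0.899, and 1.002 without stretches empty of peaks. The share at the lowest background was 41.1% before and 36.9% after the place at day 0, and 39.6% and 35.7% at day 5. Peaks after the place thus stood slightly less often at the lowest background, that is, over slightly more input, on both days. The day 0 step was 0.382 (0.319 to 0.456) before and 0.295 (0.201 to 0.425) after it. Chromosome 10, split at the same place, had 44.3 and 55.5 peaks per Mb at day 0 and 421 and 433 at day 5.

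The 2 windows of chromosome 12 at the ends of the day 0 control share differed in density on both days. The window from 65000001 to 70000000 had the highest share at the lowest background on both days, 88.9% and 77.2%, and held 99 peaks at day 0 and 1014 at day 5. The window from 80000001 to 85000000 had the lowest share at day 0, 13.2%, and the highest median background of the chromosome, 2.64 reads. It held 144 peaks at day 0 and 1676 at day 5. Both were sparse at day 0, with 19.8 and 28.8 peaks per Mb, although they were the 2 ends of chromosome 12 in control share. The background of the second lay within the quartiles of the day 0 windows of the other autosomes, 2.21 and 2.72 reads. At day 5 the 2 windows had 202.8 and 335.2 peaks per Mb, and the share of the second was 10.9%. On both days the denser was the one with the smaller share. The densest day 0 window, from 50000001 to 55000000, had 144 per Mb and a share of 44.5%. At day 5 the densest was 100000001 to 105000000 with 339.6 per Mb and a share of 14.2%. Across the 23 windows of chromosome 12, share and density had an r of -0.0424 and a rho of -0.0588 at day 0, and of -0.232 and -0.594 at day 5.

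The lowest day 5 density of chromosome 12 came from a window that is mostly empty. It lies between 20000001 and 25000000, where 4.12 of 5 Mb fall in stretches without a peak, and held 170 day 5 and 68 day 0 peaks. The longest such stretch runs from 21604645 to 25078200 (3.47 Mb). Chromosome 12 has 7 such stretches with 6.90 Mb in all, second to chromosome 7, and chromosome 10 has 1, from 81123505 to 81479268. Without them, chromosome 12 stood at 60.8 per Mb at day 0 and 284 at day 5, second from the bottom on both days.

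**Figure D5:**
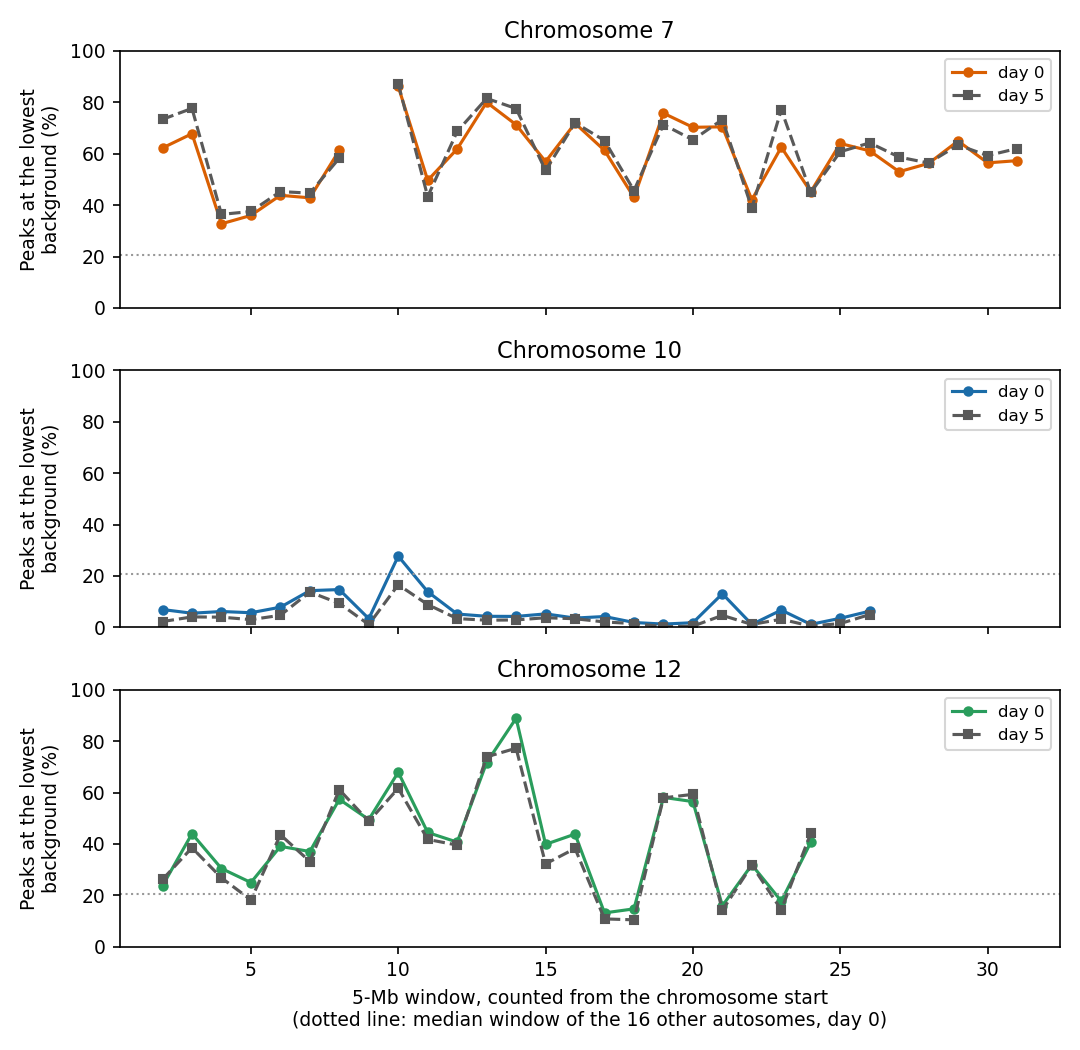
Percentage of peaks at the lowest background in 5-Mb windows along chromosomes 7, 10 and 12, at day 0 (coloured circles) and day 5 (grey squares). The dotted line is the median window of the 16 other autosomes at day 0 (20.6%). Chromosome 7 lies above it throughout, chromosome 10 below it but for 1 day 0 window at 27.7%, and chromosome 12 crosses it. The window of chromosome 7 without peaks has no point.

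Peak widths differed less than densities. At day 0 the median width was 270.0 bp on chromosome 7, 263 bp on chromosome 10 and 261 bp on chromosome 12, and the 16 others ranged from 261 to 301 bp with a median of 270.0. Mean widths were 319, 299 and 299 bp, against a median of 312 bp. At day 5 the median was 67.0 bp on chromosome 10, second only to 68.0 bp on chromosome 15, and 56 bp, the extension length itself, on chromosomes 7 and 12. The 16 others ranged from 56 to 68.0 bp with a median of 58.5 bp. Of the day 5 peaks, 61.4% on chromosome 7, 53.8% on chromosome 12 and 40.1% on chromosome 10 were exactly 56 bp wide. On the 16 others this share ran from 38.7% to 54.0%. At the lowest background alone, the day 5 median was 56 bp on all 3 and on each of the 16 others. All 25 windows of chromosome 10 had a day 5 mean width above the median window of the others, and 29 of 29 on chromosome 7 were below it. Before 60 Mb, chromosome 7 had a median day 0 width of 283 bp, and after it 257 bp.

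Strong PATZ1 peaks of day 0 were few on all 3 chromosomes. A −log10 q of at least 5 was reached by 0.258% of all day 0 peaks. On chromosome 7 it was reached by 54 peaks (0.438%), on chromosome 10 by 37 (0.577%) and on chromosome 12 by 16 (0.237%). The 16 other autosomes ranged from 0.133% to 0.527%. As these shares use the day 0 values that chose the chromosomes, nothing is read from them. Per Mb, chromosome 7 had 0.361 strong peaks, chromosome 10 had 0.291 and chromosome 12 had 0.136, against a median of 0.313. The 37 of chromosome 10 lay on a median background of 7.25 reads, the 54 of chromosome 7 on 3.93 and the 16 of chromosome 12 on 4.44. None of those on chromosome 10 lay at the lowest background, and 6 of those on chromosome 7 did (11.1%). Of all peaks, 6.26% on chromosome 10 and 54.5% on chromosome 7 lay there. On the 16 other autosomes 10 of 694 strong peaks did (1.44%), and the median background of the 694 was 5.99 reads.

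The peak with the highest −log10 p on the 3 chromosomes at day 0 was on chromosome 10, from 66390484 to 66391431. There 111 PATZ1 reads stood over a background of 3.70, which came from 179 control reads within 10 kb, an authors' fold of 23.8 and a −log10 p of 120.3. The day 5 list has 2 peaks in it, the higher with 5 reads. The next on chromosome 10 was weaker by far: from 45230447 to 45230943, 44 reads lay over a background of 2.27, a fold of 13.7. Peaks from 67609621 to 67610113, from 122349106 to 122350081 and from 59681031 to 59681893 held 63, 60 and 56 reads over backgrounds of 7.25, 6.61 and 5.58. No day 5 peak overlapped these 4. Day 5 peaks covered 3.49% of the span of chromosome 10. The share of all day 0 peaks with an overlap is not given, so nothing is read from this. The 5 strongest of chromosome 10 thus rested on 44 to 111 reads, all over local input reads and none over the genome-wide average.

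On chromosome 7 the leading day 0 peak ran from 141479242 to 141480042, with 86 reads over a background of 3.63, or 4 control reads in 228 bp, and a fold of 18.8. The peak from 50826360 to 50827000 held 47 reads over the lowest background, a fold of 16.3. Those from 13609451 to 13610593 and from 3645756 to 3646302 held 72 and 67 reads, both over 8 control reads in 228 bp. The last of the 5, from 26471649 to 26472732, rested on 54 reads where the background was 4.55. Apart from the leading peak, all of these lie before 60 Mb, a place picked from day 0 densities. So do 6543 of the 12330 day 0 peaks of the chromosome and 40 of its 54 strong ones. Day 5 peaks overlapped those starting at 141479242, 50826360 and 26471649, with 2, 3 and 4 reads.

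A −log10 q of at least 20 was reached at day 0 by 3 peaks of chromosome 12 (0.0444%). The counts were 6 on chromosome 7 (0.0487%), 9 on chromosome 10 (0.140%) and 124 on the 16 other autosomes (0.0432%). The strongest of chromosome 12, from 3806183 to 3806987, had 115 reads on a background of 10.9, or 12 control reads in 228 bp, a fold of 9.77. The peak from 27153799 to 27154459 held 58 reads over 3.63, a fold of 12.8, and that from 120054536 to 120054962 held 47 reads over 2.69, a fold of 13.02. Further down, peaks from 96662161 to 96662567 and from 76271896 to 76272483 held 30 and 28 reads over 3 control reads each. Of these 5, that starting at 120054536 was overlapped by a day 5 peak, with 3 reads, and the other 4 by none. Nothing is read from this, as day 5 peaks covered 1.99% of the span and the overlap share of all day 0 peaks is not given. Over all 16 strong peaks of the chromosome the pile-up ran from 18 to 115 reads, with a median of 29.

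At day 5 no peak of chromosome 7, 10 or 12 reached a −log10 q of 5, and a q of at most 0.05 was reached by 0.00129% of the whole list, 11 peaks. Chromosomes 10 and 12 had 1 each and chromosome 7 had 0. That of chromosome 10, from 14792913 to 14792986, held 8 reads over 0.469, or 98 control reads within 10 kb, a fold of 6.13. That of chromosome 12, from 92363277 to 92363366, held 8 reads over the lowest background, a fold of 6.20. The top peak of chromosome 7, from 37555276 to 37555363, held 7 reads over the lowest background, and the next 4, starting at 13405633, 38669742, 49769671 and 59920539, held 6 reads each. On chromosome 10 the others were a peak from 113229804 to 113229995 with 8 reads and 3 starting at 3668668, 52224137 and 129248962 with 7. On chromosome 12 the 4 others, starting at 50740886, 112625025, 120551779 and 27210240, held 7 reads each. Of these 15 leading day 5 peaks, 12 lay on the lowest background, and all 15 rested on 6 to 8 reads.

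Very high backgrounds were rare on all 3 chromosomes. Peaks on 10 times the lowest background or more numbered 0 on chromosome 7, 3 on chromosome 10 and 1 on chromosome 12 at day 0, and 0, 2 and 2 at day 5. For chromosomes 10 and 12 these were 0.0468% and 0.0148% of their day 0 peaks. The 16 other autosomes had a median of 0.00138%, with up to 0.277% on chromosome 11. At day 5 the shares were 0.00369% and 0.00634%, against a median of 0.00437% and up to 0.102% on chromosome 11. The highest was on chromosome 12, from 75905070 to 75905305, where 115 control reads within 228 bp gave a background of 104.2 and 153 PATZ1 reads a fold of 1.46. The day 5 peak from 75905395 to 75905452, close by, had 62 control reads within 56 bp and 82 PATZ1 reads, a fold of 1.54. A pile of reads in both the PATZ1 library and the input was thus found near this place on both days. On chromosome 10 the highest backgrounds were 25.4 at day 0, from 126725999 to 126726449, with 69 PATZ1 reads, and 7.70 at day 5, from 80641419 to 80641493, with 18. On chromosome 7 they were 17.6 at day 0, from 89920273 to 89920518, with 55 reads, and 2.57 at day 5, from 85946756 to 85946936, with 6.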

How the data were processed

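The authors deposited a peak list and a summit list per day, called on each library. Their unit and layout are those MACS writes, and no caller is named in the labels. The submitters' processing notes name Bowtie2, HOMER, mm9, mm10 and GRCm38 without roles. The deposited fold is a ratio with 1 added to pile-up and background. The deposited −log10 p and −log10 q are the authors' values, and the deposited score is 10 times the −log10 p, rounded down. Coordinates are read as mm9 and printed from 1. No genome or annotation of mm9 was used here, so genes and sequences at peaks are not described.

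Pile-up k and background b were solved from fold = (k + 1) / (b + 1) and −log10 P(X > k) by trying every whole k. All 315100 and 852421 peaks were met within a relative difference of 0.0001, more than 1 pile-up being possible for 64 and 768, where the closest was taken. The solver was tested on simulated data. Backgrounds within 0.5% of the lowest count as lowest. Others were divided by the background of 1 control read, 0.906 at day 0 and 0.855 at day 5, over 1 extension, 1 kb and 10 kb, within the rounding of the fold to 6 digits. A value whole in several was given to the shortest. PATZ1 depth was 8.55 reads per kb at day 0 and 8.07 at day 5, with 9.44 control reads per kb in both.

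Spans run from the first to the last peak of either list, and windows with under 2.5 Mb of span were left out. The rule for named peaks took, per chromosome and day, the 5 highest in −log10 p and the highest background, and the windows highest and lowest in density and median background. Other windows, stretches and the 60 Mb place were picked after their values were seen. The chromosomes and measures were chosen with earlier results of these data known. Columns not used number 0. Python 3.11.15, numpy 2.4.6, pandas 2.3.3 and scipy 1.17.1 were used.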

Additional observations from a re-analysis of the deposited data

Results flagged for a closer look

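Chromosome 10 lay on opposite sides of the other autosomes on the 2 days. Its peak density was 0.405 times their median at day 0 and 1.23 times at day 5. With 1 library per day the difference was not tested. The day 0 list goes down to a −log10 p of 1.01 and was made with reads of 228 bp, the day 5 list to 1.30 with 56 bp.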

How the results depend on the processing

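Values are given for chromosomes 7, 10 and 12 in that order, first for day 0 and then for day 5, and the cause of each shift was not tested. Peak density relative to the median of the 16 other autosomes (0.663, 0.405, 0.460 and 0.448, 1.23, 0.769) crossed 1 under a single alternative. Counting only peaks at the lowest background gave 1.77, 0.124 and 0.898, then 1.43, 0.278 and 1.56, which is by construction weighted to places with few input reads. Counting only peaks above it, added after seeing the data, gave 0.405, 0.510 and 0.371, then 0.230, 1.48 and 0.602. A −log10 p of at least 2 gave 0.675 and 0.383 for chromosomes 7 and 10, then 0.417, 1.29 and 0.746. A −log10 p of at least 3 gave 0.841 and 0.331 for those 2, then 0.306, 1.51 and 0.653. The median of 5-Mb windows gave 0.473, 0.365 and 0.416, then 0.518, 1.21 and 0.800. The median of 1-Mb windows gave 0.443, 0.322 and 0.317, then 0.471 and 1.18 for chromosomes 7 and 10. A reference without chromosomes 3, 4, 13 and 15 gave 0.762, 0.466 and 0.529, then 0.454, 1.25 and 0.780. The share of the span covered gave 0.678, 0.388 and 0.441, then 0.409, 1.30 and 0.743. Leaving out empty stretches, also added, gave 0.753 and 0.484 for chromosomes 7 and 12, then 0.507, 1.22 and 0.807. The share of peaks at the lowest background became 56.0%, 7.25% and 42.0%, then 60.3%, 4.52% and 38.3%, with a −log10 p of at least 2. By 5-Mb window median it was 61.3% and 5.24% for chromosomes 7 and 10, then 62.0%, 3.17% and 38.5%. With backgrounds up to 1.1 times the lowest it was 63.2%, 10.8% and 51.9%, then 66.9%, 6.84% and 47.1%. The median day 0 width was 285, 274 and 274.5 bp with a −log10 p of at least 2 and 258, 259 and 251 bp at the lowest background. At day 5 it became 57.0 bp on chromosome 12 in the first case and 56 bp on chromosome 10 in the second. The step relative to the other autosomes (0.971, 0.906, 0.958 and 0.689, 1.40, 0.843) moved for the next pile-up classes to 1.19 and 1.40 on chromosomes 7 and 10 at day 0 and to 0.768 on chromosome 12 at day 5. At a fixed number of control reads, added after seeing the data, it moved to 1.21 on chromosome 10 at day 5. Its other 14 values stayed within their counting intervals. With 1 library per day no library could be left out. No paired analysis was possible because each day has 1 library and the result comes from no test. The median pile-up was 7 reads at day 0 and 3 at day 5, with PATZ1 depths of 8.55 and 8.07 reads per kb and extensions of 228 and 56 bp, so day 5 values rest on few reads per peak.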
